A study of Mus musculus with 6 samples.

Results

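The regions described here were 754 places in the mouse genome where H3K27ac was called after LPS, away from gene starts, inside H3K4me1 that was called both with and without LPS. They were taken from the LPS H3K27ac peak list as records that did not overlap the 1000 bp on either side of any annotated gene start, and whose summit (the position of the highest signal in the record) lay inside a peak of both the LPS and the PBS H3K4me1 list. These 754 members were 25.5% of the 2959 distal LPS H3K27ac records (95% Wilson interval 23.9 to 27.1), of 4200 LPS H3K27ac records and 142059 records in the 4 peak lists together. The other distal records had their summit in the LPS H3K4me1 list only (289), in the PBS H3K4me1 list only (220) or in neither (1696), and 1241 records lay near a gene start. The members were therefore selected on the presence of H3K27ac under LPS and of H3K4me1 under both treatments, and those 3 calls are their definition and not a finding.

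The cells were bone marrow-derived macrophages (BMDMs) of C57BL/6 mice, all male by the study's methods. They were cultured from femur and tibia marrow for 6 d in medium with L929-conditioned supernatant. They were then given lipopolysaccharide (LPS) or phosphate-buffered saline (PBS) for 1 h. Chromatin was profiled by CUT&RUN, in which an antibody directs a nuclease to a histone mark and the released fragments are sequenced, for H3K27ac and H3K4me1, and the 2 IgG control samples were not analysed here. There was 1 library for each treatment and antibody, so that no spread between cultures could be estimated and no difference between treatments was tested. The depth behind the lists, worked back from the deposited values, was close to 5660000 fragments for LPS H3K27ac, 7210000 for PBS H3K27ac, 7010000 for LPS H3K4me1 and 6860000 for PBS H3K4me1. The 4 lists differed far more in length, with 4200, 52, 73049 and 64758 records in the same order. As a check of the label, 37 of 41 macrophage surface and effector genes had an LPS H3K4me1 peak within 10000 bp of the start and 35 had a PBS one, against 47.4% and 40.8% of all protein-coding genes. Of 12 markers each, the same counts were 6 and 4 for neutrophils, 8 and 4 for lymphocytes and 3 and 3 for fibroblasts, and of 30 genes of other tissues they were 7 and 6.

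Enhancers are stretches of DNA, often far from the gene they act on, that bind transcription factors and raise transcription. Monomethylation of histone H3 at lysine 4 (H3K4me1) marks them whether or not they are in use, while acetylation at lysine 27 (H3K27ac) marks those that are active. In macrophages the lineage factor PU.1 opens many such sites together with AP-1 and C/EBP proteins, and LPS, sensed by the receptor TLR4, sends NF-kB to the nucleus, where it binds many of them.

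The 6 members with the strongest H3K27ac, ranked by −log10 q (the peak caller's p corrected for the number of positions tested), are shown first, since they set out what such a region looks like at the level of its bases. Each line gives 100 bases on either side of the summit from the RefSeq copy of the GRCm38 genome, forward strand, named by the protein-coding gene with the nearest start. Capitals mark a match to any of 10 motifs searched on both strands.
Eps8 (chr6:137559084-137559284): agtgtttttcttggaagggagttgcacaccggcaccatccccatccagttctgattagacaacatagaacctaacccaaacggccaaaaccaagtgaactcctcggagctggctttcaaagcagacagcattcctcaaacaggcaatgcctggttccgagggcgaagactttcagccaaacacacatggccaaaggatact
Irf2bpl (chr12:86897451-86897651): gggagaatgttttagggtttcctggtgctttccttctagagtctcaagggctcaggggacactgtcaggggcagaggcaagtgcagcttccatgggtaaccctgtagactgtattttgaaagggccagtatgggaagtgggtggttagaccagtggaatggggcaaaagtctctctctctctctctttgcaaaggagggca
Susd6 (chr12:80839747-80839947): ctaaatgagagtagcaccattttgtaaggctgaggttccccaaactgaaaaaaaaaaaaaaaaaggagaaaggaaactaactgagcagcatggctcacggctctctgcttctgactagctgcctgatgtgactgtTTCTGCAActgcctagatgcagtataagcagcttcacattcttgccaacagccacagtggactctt
Tmem230 (chr2:132212169-132212369): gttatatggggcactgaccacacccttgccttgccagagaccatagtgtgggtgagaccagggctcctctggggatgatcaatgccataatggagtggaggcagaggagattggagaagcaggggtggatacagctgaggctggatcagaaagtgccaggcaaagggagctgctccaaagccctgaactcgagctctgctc
Dnah6 (chr6:73210922-73211122): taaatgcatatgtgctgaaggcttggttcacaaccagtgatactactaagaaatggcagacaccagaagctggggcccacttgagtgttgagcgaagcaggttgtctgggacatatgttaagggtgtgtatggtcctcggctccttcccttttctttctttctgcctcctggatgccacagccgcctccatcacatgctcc
Tnfrsf11a (chr1:105790987-105791187): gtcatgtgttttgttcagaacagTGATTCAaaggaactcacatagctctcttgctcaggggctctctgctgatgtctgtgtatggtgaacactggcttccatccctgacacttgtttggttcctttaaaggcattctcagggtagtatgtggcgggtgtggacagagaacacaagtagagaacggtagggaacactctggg
The Susd6 sequence held a C/EBP match (TTGCNNAA, here on the reverse strand) that began 35 bases after the summit, and the Tnfrsf11a sequence held an AP-1 match (TGANTCA) that began 77 bases before it. The other 4 sequences held none of the 10 motifs. Over all members, 273 of 754 (36.2%) had at least 1 match within 100 bases of the summit. That share was not counted in other windows, so it is not read as a trait of the members. The shares of single motifs are set beside other windows below.

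The strongest member lay in an intron of Eps8, which encodes an actin-capping adaptor, 95692 bp from the gene's start. Its LPS H3K27ac record had 20 fragments at the summit, a fold enrichment (summit signal over the local background) of 13.2 and a −log10 q of 18.2, and it ranked 9 among the 4200 records. No PBS H3K27ac record overlapped it, and the H3K4me1 peak around it was 3298 bp wide with 35 fragments at its highest point under LPS and 3279 bp wide with 30 under PBS. The H3K4me1 of this region was thus nearly the same size in both libraries.

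The next member lay between genes, 12753 bp upstream of Irf2bpl, a gene for a nuclear regulatory protein. It had 20 H3K27ac fragments and a fold enrichment of 12.6, in an H3K4me1 peak of 399 bp and 18 fragments under LPS and of 1017 bp and 21 fragments under PBS. The member in the Susd6 intron had 17 H3K27ac fragments and a fold enrichment of 12.4, and its H3K4me1 peak had 30 fragments over 540 bp under LPS and 18 fragments over 1496 bp under PBS. In these regions the H3K4me1 peak was narrower under LPS. At Susd6 it had more fragments under LPS but a lower fold enrichment (6.46, beside 7.90 under PBS).

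The member at Tnfrsf11a, which encodes RANK, the receptor through which macrophage precursors are driven to become osteoclasts, lay in an intron 10369 bp from the start and had 19 H3K27ac fragments and a fold enrichment of 9.98. Its H3K4me1 peak had 28 fragments under LPS and 38 under PBS, at widths of 1232 and 1242 bp. The other members among the strongest 10 lay in introns of Dnah6 (an axonemal dynein chain), Rassf2 (a Ras-association protein), Aff1 (a subunit of a transcription elongation complex), Gas7 (a membrane and actin adaptor) and the non-coding gene Gm14051 near Tmem230, and between genes near Ypel2. Their H3K27ac summits had 13 to 18 fragments and fold enrichments of 9.74 to 11.9, and none of the 10 was overlapped by a PBS H3K27ac record.

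Across all members the H3K27ac signal was modest. Summits had from 5 to 23 fragments with a median of 9, records were 118 to 742 bp wide with a median of 157 bp (interval of the median 154 to 161), and the fold enrichment ran from 3.71 to 13.2 with a median of 5.64 (5.49 to 5.84). The median −log10 q was 4.02, and 239 members (31.7%, 28.5 to 35.1) reached 5. Intervals here and below are 95% intervals for counting error only (Wilson for shares, order statistics for medians), and regions of 1 library are not replicates, so that values of the classes are given side by side with no test.

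**Figure D1:**
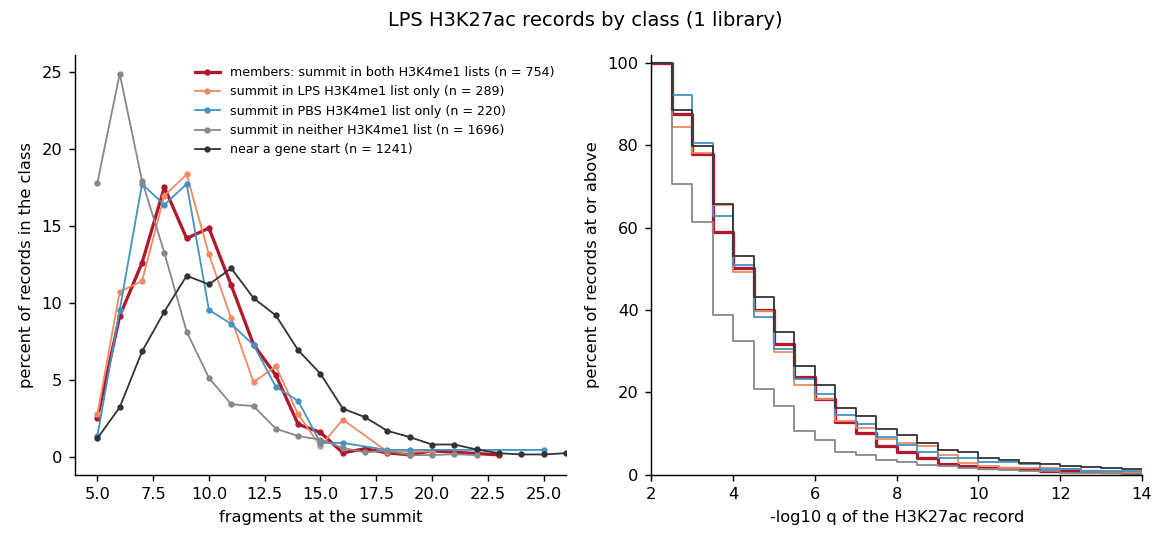
Left, the percent of LPS H3K27ac records in each class (y axis) by the number of fragments at the summit (x axis). Right, the percent of records in each class at or above each −log10 q (x axis). The members (red) followed the records with H3K4me1 in 1 list, with medians of 9 fragments in all 3 classes, while records outside H3K4me1 (grey) had a median of 7 and those near gene starts (black) a median of 11.

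The members differed little in strength from distal records whose summit lay in H3K4me1 of 1 treatment only. The median fold enrichment was 5.67 for summits in the LPS list only and 5.78 for those in the PBS list only, and 29.8% and 30.5% of them reached a −log10 q of 5. Distal records outside both H3K4me1 lists were weaker, with a median fold enrichment of 5.16, a median of 7 fragments and 16.7% (15.0 to 18.5) at a −log10 q of 5 or more. These values belong to the same list that chose the members, and the plot of summit fragments by class shows the whole distributions.

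The H3K27ac list of the cells given PBS held few of these regions. Of the 754 members, 3 (0.398%, 0.135 to 1.16) were overlapped by a PBS H3K27ac record, against 0.357% of all 4200 LPS H3K27ac records, so that the members' share lay near that of the whole list. The PBS list held 52 records in all and its weakest −log10 p was 6.91, a level that 570 members (75.6%) reached under LPS. The members' absence from the PBS list is thus read from a list with few records and a higher limit, in 1 library.

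The 3 members called under both treatments lay in different settings. A member 10127 bp from Lyz1, a lysozyme gene, had 8 fragments and a fold enrichment of 5.86 under LPS, and the PBS record there had 10 fragments and a fold enrichment of 7.09. A member in an intron of Rftn1, which encodes the lipid-raft protein raftlin, had 12 fragments and a fold enrichment of 8.28 under LPS and 10 fragments and 6.98 under PBS. The last lay in an intron of Dus2, a tRNA-modifying enzyme gene, 1633 bp from the start of Dpep2nb, with 8 fragments under LPS and 11 under PBS, and 64.2% of its window was repeat-masked sequence. At Lyz1 and Dus2 the PBS fragment count was the higher, and at Rftn1 the LPS count was.

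The H3K4me1 peaks around the members were wide and high for their lists. Under LPS they had a median width of 987 bp (937 to 1070) and under PBS of 888 bp (834 to 938), beside medians of 353 and 335 bp over the whole lists. Distal LPS H3K4me1 peaks whose summit lay in a PBS peak, which share the selection on both lists, had a median of 508 bp, and those of them without an LPS H3K27ac record one of 502 bp. The highest point of the peak had a median of 26 fragments under LPS (range 9 to 77) and of 25 under PBS (range 9 to 50), beside 17 over each whole list. Wide peaks cover more bases and so hold a given summit more often, and the part of this in the widths was not tested. Peaks of 2000 bp or more held 145 members (19.2%) under LPS and 79 (10.5%) under PBS, where 2.35% and 1.25% of all H3K4me1 peaks were that wide.

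Most H3K27ac summits lay more than 50 bp from the H3K4me1 maximum, and most lay within 200 bp of it (56.0% under LPS, 59.8% under PBS). How much of this distance comes from imprecise summits of few fragments was not tested. The median distance between the summits of both marks was 164 bp under LPS (144 to 187) and 152 bp under PBS (133 to 169), and 167 and 161 members lay within 50 bp. Within 500 bp lay 616 members (81.7%) under LPS and 637 (84.5%) under PBS. The 754 members lay in 715 LPS and 719 PBS H3K4me1 peaks, of which 37 and 33 held 2 or more members and none more than 3.

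The level of H3K4me1 at the members changed little between the libraries, while the LPS peaks were more often the wider ones. Of 754 members, 433 (57.4%, 53.9 to 60.9) had an LPS H3K4me1 peak wider than the PBS one, 320 a narrower one and 1 an equal one, and the median ratio of widths was 1.09. The background was 50.2% over the 36266 LPS H3K4me1 peaks whose summit lay in a PBS peak, but it depended on which list the pairs were found from. Over the 40484 PBS peaks whose summit lay in an LPS peak, 69.6% had the wider partner under LPS, so the members' share fell between both backgrounds.

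Scaled to the depth of each library, the fragments at the H3K4me1 maximum were at least 1.5-fold higher under LPS at 67 members (8.89%, 7.06 to 11.1), where the background over the same 36266 pairs was 9.32%. They were at least 1.5-fold lower at 48 members (6.37%, 4.83 to 8.34), where the background was 8.31%. The median ratio was 1.02 over the members and 1.03 over the pairs, so that by this measure the members stood near the other shared peaks in both directions.

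**Figure D2:**
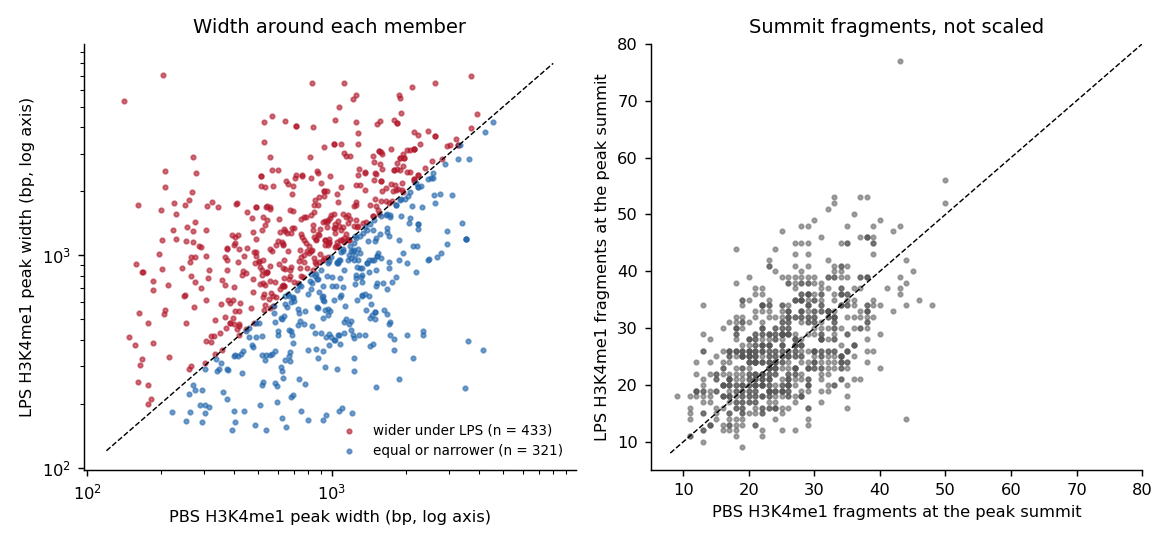
Each point is 1 of the 754 members. Left, width of the H3K4me1 peak that holds it under PBS (x axis) and LPS (y axis), both in bp on log axes, with 433 points above the dashed line of equality. Right, fragments at the highest point of the same peaks, not scaled for depth, which scatter on both sides of the line with medians of 25 (PBS) and 26 (LPS).

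The members with the most different H3K4me1 maxima were named after their values were seen. A member 102064 bp from Otulinl had 34 fragments under LPS and 13 under PBS, a ratio after scaling to depth of 2.56 (exact conditional interval 1.32 to 5.29). One 9195 bp from Kif21b, a kinesin gene, had 44 and 18 fragments, a ratio of 2.39 (1.35 to 4.40). In the other direction, a member near 2010111I01Rik had 14 and 44 fragments (0.312, 0.158 to 0.579) and one near Arid5b had 12 and 27 (0.435, 0.201 to 0.888). The next was the member in the Aff1 intron, which is among the 10 strongest for H3K27ac, with 13 and 29 (0.439, 0.209 to 0.871). These are the extremes of 754 pairs of counts, picked for their ratio.

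Most members lay within genes or at a moderate distance from one. By GENCODE M21 on GRCm38, the summit lay in an intron of a protein-coding gene for 405 members (53.7%, 50.1 to 57.2) and between genes for 263 (34.9%). It lay in an intron of a non-coding gene for 42, in an untranslated exon for 20, in a non-coding exon for 18 and in a coding exon for 6. Summits in the LPS or the PBS H3K4me1 list only were much alike, with 52.9% and 54.5% in such introns and 33.9% and 35.9% between genes. Outside H3K4me1 the shares were 45.7% and 40.9%. The median distance to the nearest protein-coding gene start was 24942 bp (21820 to 28083), with 171 members (22.7%) within 10000 bp and 97 (12.9%) beyond 100000 bp. Distal records outside H3K4me1 had a median of 39562 bp, with more of them beyond 100000 bp (32.0%, 29.8 to 34.3) and 25.9% (23.9 to 28.0) within 10000 bp. Summits in the LPS or the PBS H3K4me1 list only had medians of 22659 and 19141 bp, with 31.1% (26.1 to 36.7) and 30.0% (24.3 to 36.4) within 10000 bp. The nearest member lay 1111 bp from the start of Sorbs3, and the farthest lay 1248845 bp from that of Zeb2.

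The 754 members shared 591 nearest genes. Tns3, a focal adhesion gene, and Dhrs3, a retinaldehyde reductase gene, were each nearest to 6 members, Marcks to 5, and Aff1, Fgd3, Id2, Klf6, Sash1, Tnfrsf11a, Zeb2 and Zmiz1 to 4 each. Genes nearest to 3 included Spi1, Mitf, Peli1, Cd180, Cd47, Il10ra and Pla2g7, and 31 genes in all were nearest to 3 or more. These genes were listed by their counts after the counts were seen.

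Some members stood close together. Joined where neighbouring summits lay within 10000 bp, they formed 652 groups, of which 567 held 1 member, 71 held 2, 11 held 3 and 3 held 4. Pairs of neighbours within 2000 bp numbered 71, with a median gap of 696 bp and a smallest gap of 225 bp. Members of a group lie close together, and some of them share an H3K4me1 peak or a nearest gene. They are therefore not taken as independent of each other.

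The 3 groups of 4 lay at Fgd3, Sash1 and Marcks. At Fgd3, a guanine nucleotide exchange factor gene for Cdc42, 4 summits within 2347 bp had 11, 7, 8 and 10 H3K27ac fragments from left to right on chromosome 13, and lay in 3 LPS and 4 PBS H3K4me1 peaks. At Sash1, which encodes a scaffold protein of TLR4 signalling, 4 intronic summits within 3551 bp had 7, 9, 11 and 7 fragments in 3 peaks of each H3K4me1 list. Upstream of Marcks, a gene for an actin-binding protein kinase C substrate, 4 intergenic summits 89131 to 97279 bp from the start had 7, 8, 5 and 5 fragments over 8148 bp. The strongest records of these groups had fold enrichments of 7.82 at Fgd3, 7.12 at Sash1 and 5.99 at Marcks, beside the members' median of 5.64.

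Among groups of 3, those with the strongest record were at Susd6 and Tmem230. The Susd6 summits had 10, 17 and 7 fragments within 1220 bp, and the Tmem230 summits had 18, 8 and 13 fragments over 12447 bp. At both, 1 record was among the 10 strongest members and its neighbours were weaker.

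**Figure D3:**
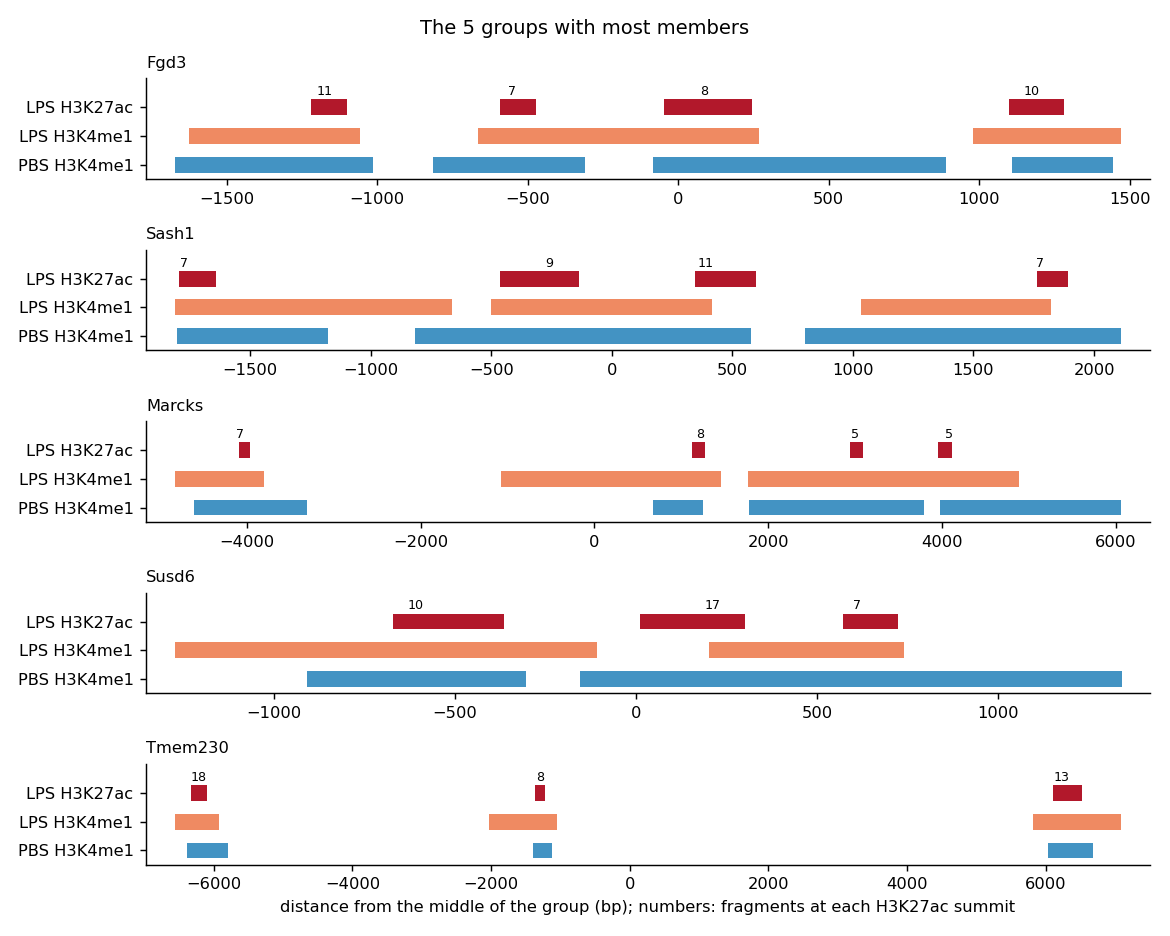
The 5 groups with most members, as bars along the distance in bp from the middle of each group (x axis). Rows are the LPS H3K27ac records, with the fragments at each summit above them, and the LPS and PBS H3K4me1 peaks that hold the summits. The Fgd3, Sash1 and Marcks groups hold 4 records each, and several share an H3K4me1 peak in 1 list but not in the other.

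The bases around the summits were searched for motifs, a measure that the selection did not use. The PU.1 core GAGGAAGT was present within 100 bases of the summit in 34 members (4.51%, 3.24 to 6.24), beside 1.42% (0.953 to 2.10) of distal records outside H3K4me1, 1.77% of records near gene starts and 2.45% (1.79 to 3.36) of windows of the same length 1000 bp to either side of the members. It was present in 5.41% (5.16 to 5.66) of 32145 distal H3K4me1 summits of both lists that had no LPS H3K27ac record and in 3.20% of 32851 RefSeq promoters, whose windows of 300 bases are longer. AP-1 (TGANTCA) was present in 62 members (8.22%, 6.47 to 10.4), in 6.56% of the flanking windows and in 11.05% of H3K4me1 summits without H3K27ac. The PU.1 share at the members thus had an interval above that of the records outside H3K4me1, and one that included the share of H3K4me1 summits alone. Summits in 1 H3K4me1 list only held PU.1 at 7 of 289 (LPS list) and 6 of 220 (PBS list). For AP-1 the counts were 19 of 289 and 20 of 220, the latter a higher share than at the members. For both motifs the intervals of these classes overlapped the members' own, so that neither share was particular to the members.

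Like the shares of PU.1 and AP-1, those of the remaining motifs had intervals that overlapped the intervals of the flanks. C/EBP (TTGCNNAA) was in 7.29% of members and 9.28% of flanks, RUNX (TGTGGTT) in 5.17% and 4.64%, the PU.1-IRF composite core (GGAANTGAA) in 3.98% and 2.65%, the MiT/TFE E-box (TCANGTGA) in 3.45% and 2.25%, the CTCF core (CCANNAGGG) in 4.38% and 3.65%, the interferon response core (GAAANTGAA) in 1.86% and 1.72%, and NF-kB (GGANTTTCC) in 0.796% of both. The GC box (GGGCGG) was in 3.71% of members, where it was in 24.6% of records near gene starts. In base content the members had a median GC of 49.3%, beside 45.8% in their flanks, 45.3% in records outside H3K4me1 and 56.2% near gene starts, and 44 of them (5.84%) were at least 50% repeat-masked. Motifs that share letters, such as both PU.1 forms, can match the same bases, and a match is a description of the sequence and not a binding site.

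Counted by distance, sites of most motifs, AP-1, PU.1 and NF-kB among them, were more frequent beside the H3K27ac summits than on them. This count, in bins of 75 bp summed over both sides, was chosen after the first motif shares had been seen. AP-1 sites numbered 45 in the first 75 bp, 87 at 75 to 150 bp, 91 at 150 to 225 bp and 73 at 225 to 300 bp, and then 30 to 52 in each later bin to 1050 bp. PU.1 sites numbered 20, 35, 26 and 14 in the same 4 bins, and NF-kB sites 3, 19, 9 and 4. In these 3 motifs the second bin held more sites than the first. So it did for C/EBP (37, then 58), RUNX (23, then 41) and the interferon response core (7, then 21). The rise was smaller for the PU.1-IRF composite (22, then 26), the MiT/TFE E-box (20, then 22) and the CTCF core (23, then 25). The GC box alone went the other way (23, then 20).

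The range of 75 to 225 bp was then picked from this profile. It holds the fullest bins of AP-1, PU.1 and NF-kB and leaves out the first. The ratios that follow and their intervals are thus raised by that choice and are descriptions. Set against the outer bins (600 to 1050 bp, scaled to the same width), sites in that range were 2.19 times as frequent for AP-1 (178 sites, 95% exact conditional interval 1.79 to 2.67), 2.35 times for PU.1 (61 sites, 1.65 to 3.32) and 3.23 times for NF-kB (28 sites, 1.83 to 5.74). The PU.1-IRF composite gave 1.65 (1.14 to 2.37), while C/EBP gave 1.05 (0.839 to 1.29), RUNX 1.29 (0.973 to 1.69), the interferon response core 1.31 (0.847 to 1.98), CTCF 1.14 (0.784 to 1.64), the MiT/TFE E-box 1.25 (0.826 to 1.85) and the GC box 0.906 (0.590 to 1.36). Around distal H3K27ac summits outside H3K4me1 the same ratios were 1.20 (1.02 to 1.41) for AP-1, 1.45 (1.03 to 2.02) for PU.1 and 1.42 (0.864 to 2.28) for NF-kB. For AP-1 the members' interval lay above that of the records outside H3K4me1, and for PU.1 and NF-kB the intervals overlapped. Around summits in H3K4me1 of 1 list the ratios for AP-1 were 1.72 (1.21 to 2.43) in the LPS list only and 1.77 (1.22 to 2.55) in the PBS list only. Those for PU.1 were 2.00 (1.11 to 3.53) and 3.40 (1.60 to 7.31). Those for NF-kB were 0.692 (3 sites, 0.127 to 2.52) and 2.25 (6 sites, 0.643 to 7.39). These intervals overlapped the members' own, so that the excess was not set apart from that of either class.

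Around the 32145 H3K4me1 summits without H3K27ac the PU.1 ratio was 2.36 (2.22 to 2.505), close to the members' 2.35, and the AP-1 ratio was 1.38 (1.33 to 1.43). There the bin nearest to the summit was the fullest. AP-1 gave 9.59 sites per 100 summits in the first 75 bp, then 7.68 and 6.93, and PU.1 gave 4.22, then 3.62 and 2.54. Around member summits the same 3 bins held 5.97, 11.5 and 12.1 AP-1 sites and 2.65, 4.64 and 3.45 PU.1 sites per 100. Summits in the LPS H3K4me1 list only also had fewer in the first bin than in the second, with 4.15, 8.997 and 9.69 AP-1 sites and 1.73, 4.15 and 3.46 PU.1 sites per 100. The bins of NF-kB at the H3K4me1 summits stayed between 0.535 and 0.700 sites per 100. The members' second bin held 2.52, the highest of their bins, and their other bins held 0.265 to 1.19. In the second bin, summits in the LPS H3K4me1 list only held 0.346 (1 site) and those in the PBS list only 1.36 (3 sites).

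**Figure D4:**
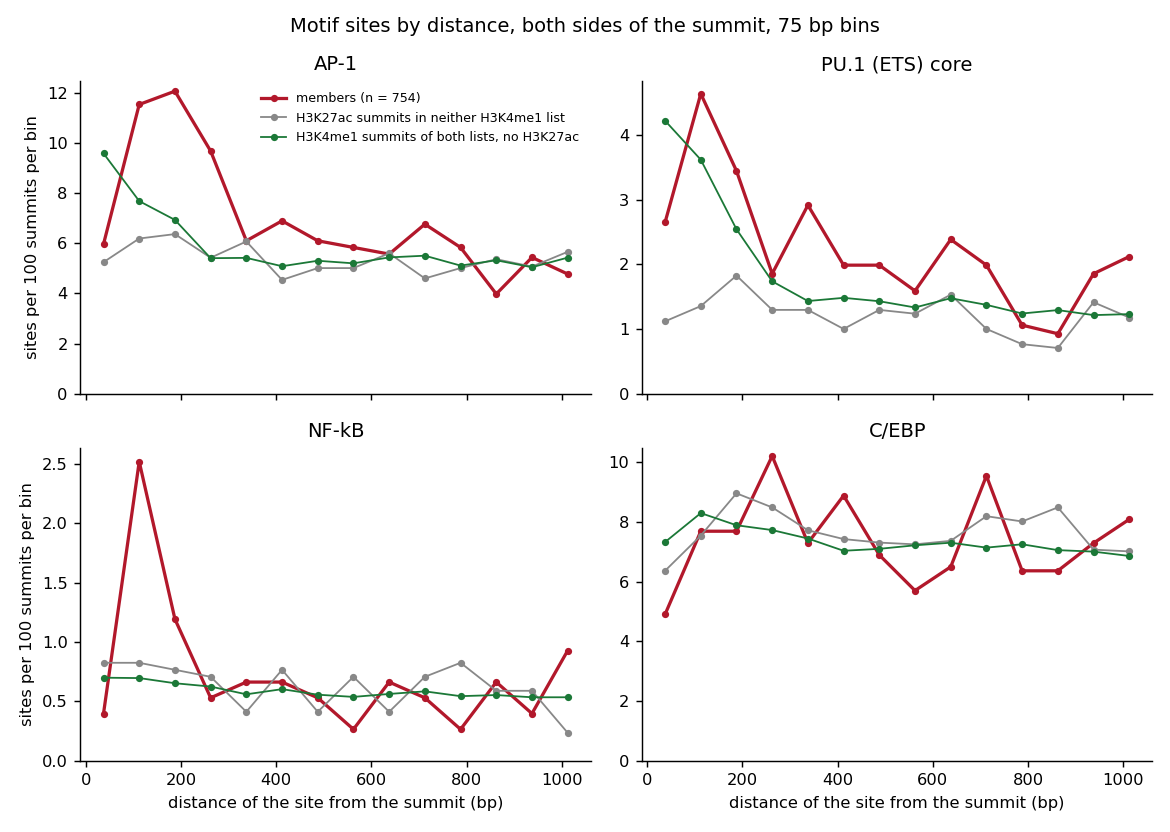
Motif sites per 100 summits in each 75 bp bin (y axis) by distance from the summit in bp, both sides summed (x axis), for AP-1, PU.1, NF-kB and C/EBP. Members (red) have most AP-1 sites at 150 to 225 bp (12.1 per 100) and most PU.1 (4.64) and NF-kB (2.52) sites at 75 to 150 bp, H3K4me1 summits without H3K27ac (green) have most AP-1 and PU.1 sites in the first bin, and records outside H3K4me1 (grey) lie lower in those bins.

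The same members gave more AP-1 when the window was placed on their H3K4me1 summit. AP-1 was within 100 bases of 97 of the 715 LPS H3K4me1 summits around members (13.6%, 11.3 to 16.3) and of 93 of the 719 PBS ones (12.9%, 10.7 to 15.6), beside 8.22% at the H3K27ac summits. PU.1 was within 100 bases of 6.71% and 6.26% of them, beside 4.51%. Where the PBS H3K4me1 summit lay 100 bp or more away, 76 of 110 distinct AP-1 sites at 75 to 225 bp (69.1%, 59.9 to 77.0) stood on its side of the H3K27ac summit, and for the LPS H3K4me1 summit 68 of 120 did (56.7%, 47.7 to 65.2). For PU.1 the counts were 23 of 39 (43.4 to 72.9%) and 19 of 36 (37.0 to 68.0%), with intervals that included 50%. C/EBP sites stood on the side of the PBS H3K4me1 summit in 49 of 79 (51.0 to 71.9%) and on that of the LPS one in 36 of 75 (37.1 to 59.1%).

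The 28 NF-kB sites at 75 to 225 bp were 27 distinct sites in 27 members, since neighbouring members at Spi1 shared 1. By letters, 12 read GGAGTTTCC, 8 GGAATTTCC, 4 GGATTTTCC and 3 GGACTTTCC. The sites of the members with the highest −log10 q are printed below in the direction of the motif, with the motif in capitals and 8 bases of GRCm38 on either side, because NF-kB is the factor that LPS activates. They were picked after the site counts were seen.
Mefv (chr16:3723440-3723464, - strand): tgctcgaaGGAGTTTCCtgatgagt
Dppa3 (chr6:122650817-122650841, + strand): ctcccagaGGAGTTTCCctgatgct
Arrdc2 (chr8:70833337-70833361, + strand): cttttttgGGACTTTCCtcaacatc
Spi1 (chr2:91086540-91086564, + strand): atgcacagGGAATTTCCattgtagc
Rab10 (chr12:3297806-3297830, + strand): agacctagGGAATTTCCcttttttt
Rab10 (chr12:3297989-3298013, + strand): ccacgctgGGAATTTCCaaggtgat
Klf3 (chr5:64811627-64811651, + strand): ttcagggtGGAATTTCCaggaactg
Runx3 (chr4:135179299-135179323, + strand): ccctgcctGGAGTTTCCtcacccag
The Spi1 site lay in an intron of the gene for PU.1 itself, 222 bp from a summit with 14 H3K27ac fragments and a fold enrichment of 7.88. The Rab10 member had 2 sites, 89 bp before and 94 bp after its summit of 10 fragments. The sites at Mefv, the gene for the inflammasome sensor pyrin, and at Arrdc2 lay 94 and 147 bp from summits of 12 and 15 fragments.

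Within 225 bp of the summit, 273 members (36.2%, 32.9 to 39.7) had an AP-1, PU.1 or NF-kB site, beside 357 of 1696 records outside H3K4me1 (21.05%, 19.2 to 23.1), 86 of 289 in the LPS H3K4me1 list only (29.8%, 24.8 to 35.3) and 73 of 220 in the PBS list only (33.2%, 27.3 to 39.6). AP-1 was present in 191 members, PU.1 in 78, NF-kB in 30, and AP-1 and PU.1 together in 17. The intervals of the members and of both classes with H3K4me1 in 1 list overlapped.

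Genes of the LPS response and of the macrophage were looked up next, by lists of genes and not by their values. Of 21924 protein-coding genes, 906 (4.13%) had a member within 50 kb of the start, and of the 11172 genes with a distal H3K4me1 peak of both lists in reach, 901 (8.06%) had. The second share is the closer comparison, since every member lies in H3K4me1 of both lists. Shares of the lists are read beside these, with 1 library and short lists, and no test was made.

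Of 16 genes for TLR4 receptors and adaptors, 3 had a member within 50 kb. Ticam1, which encodes the adaptor TRIF, had 2, the stronger 10051 bp downstream of the start with 10 fragments and a fold enrichment of 5.60. That member lay nearer to the start of Fem1a. Tab2, an adaptor of the kinase TAK1, had 1 in its own intron, 8346 bp from the start, with 7 fragments and a fold enrichment of 5.90. Peli1, an E3 ubiquitin ligase of this pathway, had 2, the stronger 42233 bp upstream, 529 bp wide with 12 fragments and a fold enrichment of 6.49. None of the 5 NF-kB subunit genes had a member in reach (interval 0 to 43.4%), beside 4.13% of all protein-coding genes. An LPS H3K27ac record of some class lay in reach of 4 of them and of 10 of the 16 genes for TLR4 receptors and adaptors. These shares were not counted over all genes.

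Feedback inhibitors had a member at 2 of 22 genes. Zc3h12a, the gene for the RNase Regnase-1, had 1 at 11719 bp downstream with 11 fragments and a fold enrichment of 5.34. The member 28452 bp upstream of Nfkbid, which encodes a nuclear inhibitor of NF-kB, had 9 fragments and a fold enrichment of 4.99 and lay nearer to Tyrobp.

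Of 21 cytokine genes, Il27 alone had a member, with 6 fragments and a fold enrichment of 4.66, 12444 bp upstream. Chemokine genes had members at 4 of 16. The member 3443 bp upstream of Ccl4 and 9786 bp upstream of Ccl3, neighbouring genes for neutrophil and monocyte attractants, was the same record, with 7 fragments and a fold enrichment of 5.31. Ccl22 had 1 at 34249 bp upstream with 10 fragments and a fold enrichment of 7.70, the strongest of these, and Cxcl16 had 1 at 9917 bp upstream with 6 fragments and 4.69. The chemokine share of 25% (10.2 to 49.5) thus rests on 3 records, and the record at Ccl22 lay nearer to the start of Pllp.

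Tnf, the gene whose upstream region the study followed, had no member. It had 2 LPS H3K27ac records within 50 kb, 7877 and 8531 bp upstream of its start on chromosome 17, with 8 and 11 fragments and fold enrichments of 5.64 and 7.26. Both records lay nearer to the start of Lta. The summit of the first lay in the PBS H3K4me1 list only and that of the second in neither list. The strength of these records was thus in the range of the members, and it was the H3K4me1 calls that set them apart.

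Immediate-early genes had members at 4 of 25 genes, all of them transcription regulators that are induced within minutes to hours. Btg2 had 1 at 13340 bp downstream with 11 fragments and a fold enrichment of 6.86, Klf6 had 2, the stronger 10275 bp downstream with 9 fragments and 6.66, Cebpb had 1 at 39677 bp upstream with 11 fragments and 6.15, and Klf2 had 1 at 23051 bp upstream with 8 fragments and 5.44. The Klf2 member had an NF-kB site 142 bp from its summit, the Cebpb member an AP-1 site at 157 bp and the Btg2 member one at 69 bp. The Klf2 member lay nearer to the start of Gm10282, and the Cebpb member lay in an intron of Gm20431, also its nearest gene.

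Macrophage lineage factors had members at 4 of 20 genes and 8 gene and member pairs in all. Spi1 had 3 members in its introns, at 3940, 4254 and 5840 bp from the start, with 14, 9 and 12 fragments and fold enrichments of 7.88, 4.99 and 7.38. Mitf, a regulator of lysosomal and osteoclast genes, had 3, the strongest 9573 bp into the gene with 9 fragments and a fold enrichment of 6.66. Irf5 had 1 at 2621 bp with 7 fragments and a fold enrichment of 4.26, and Fli1 had 1 at 12713 bp with 6 and 5.16. The Irf5 member was weak, at rank 4080 of 4200, and had an AP-1 site 78 bp from its summit.

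**Figure D5:**
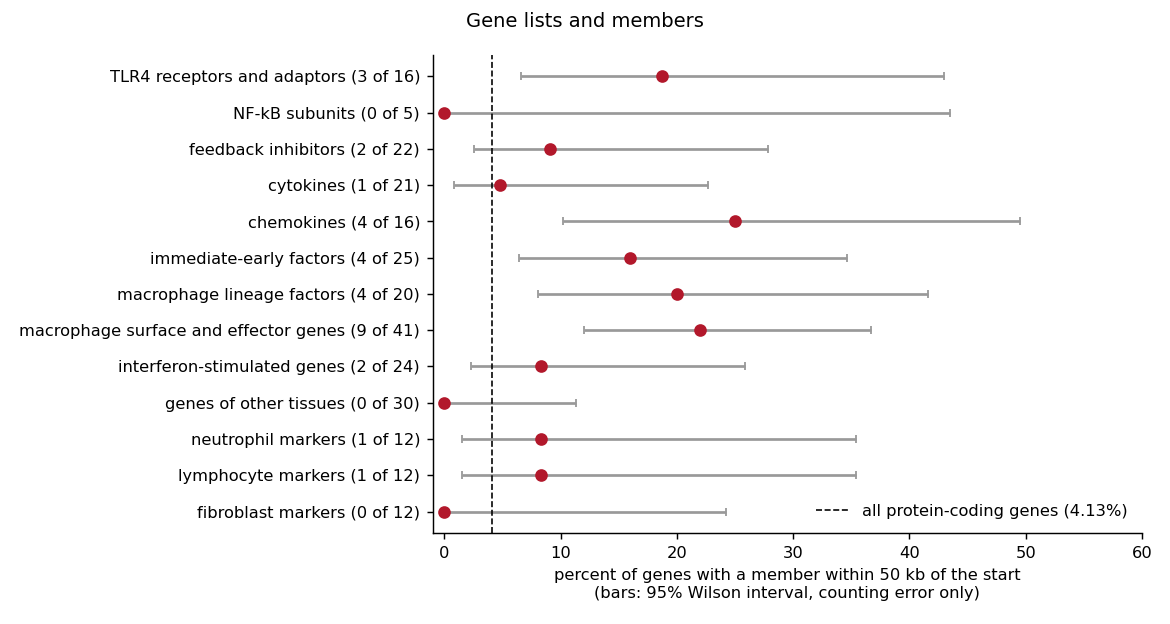
Percent of the genes in each list with a member within 50 kb of the gene start (x axis), with 95% Wilson intervals for counting error and the counts beside each name. The dashed line is the 4.13% of all protein-coding genes. Among genes with a distal H3K4me1 peak of both lists in reach the share was 8.06%, which is not drawn. The lowest list shares are 0 of 5 NF-kB subunits, 0 of 30 genes of other tissues and 0 of 12 fibroblast markers. The highest is 4 of 16 chemokines.

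The limits of the selection passed close to many records. The members nearest to the limit of 1000 bp from a gene start were 1042 bp from one, near Gm33370 (fold enrichment 7.86), and 1044 bp, near Sorbs3 (8.17), and records just outside lay 999 bp away near Crk (5.17) and 967 bp near Gm42941 (4.49). A member near Wee1 had its summit on the outermost base of an H3K4me1 peak (fold enrichment 5.33) and one near Ago2 was 1 bp inside (6.84), while records near Trappc3 (4.32) and Dennd2c (5.33) missed a peak by 1 and 2 bp. Of the members, 142 (18.8%) lay within 50 bp of an edge of either H3K4me1 peak. Of the 509 summits in 1 H3K4me1 list only, 246 (48.3%) lay within 200 bp of a peak of the other list.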

How the data were processed

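H3K27ac and H3K4me1 were profiled by CUT&RUN in LPS- and PBS-treated BMDMs, with 1 library each. Per the submitters' processing notes and the study's methods, the authors trimmed reads, aligned them with Bowtie2 2.4.4 to GRCm38, removed blacklisted regions and called peaks in each library with MACS2 2.2.7.1. The deposited peak lists give fold enrichment (a ratio), −log10 p, −log10 q and an integer score, which was not used. The fold and −log10 p of a summit together fix its fragment count, and the deposited p was returned within 0.002 for at least 99.997% of the records in each list. Depth was worked back from these counts, and depths are estimates. Gene starts, 1 per gene, came from GENCODE M21, and bases from the RefSeq GRCm38 assembly. The members and lists were chosen with earlier results of these data known. By rule, the members named were the 10 highest by −log10 q, those overlapped by a PBS H3K27ac record, those of the 5 largest groups (ties by the strongest record), up to 2 at each limit, and the genes of 7 lists with a member within 50 kb, plus Tnf. Other members were named after their values were seen: those with extreme H3K4me1 ratios, those with NF-kB sites, those nearest to and farthest from a gene, the genes nearest to most members, and the genes of further lists. No replicates existed, so no test was run. Intervals cover counting error only, and PCR duplicates may widen them. Scripts were tested on simulated data and run with Python 3.11.15, SciPy 1.17.1 and pysam 0.24.0.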

Additional observations from a re-analysis of the deposited data

How the results depend on the processing

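No paired analysis was possible because each treatment and antibody had 1 library and no result came from a test. Of 70 values under 20 alternatives, 47 stayed within the interval of the reported value, or within 1.5-fold of a count, and 23 did not. Keeping LPS H3K27ac records with −log10 q from 5 upward left 239 members, 1 of them in the PBS H3K27ac list, with a median fold enrichment of 7.103 and 1.64% of genes in reach. With that limit in all lists the values were 168, 0, 7.15 and 1.18%. A fold enrichment of at least 5 gave a median of 6.08 and 3.07% of genes, by its own construction. The share of genes was 3.83% with every transcript start, 3.71% with a distal limit of 2500 bp, 4.94% with any overlap of 1 bp with both H3K4me1 lists, 3.87% without repeat-masked summits, 0.816% within 10000 bp, 7.95% within 100000 bp and 2.00% for the nearest gene only. Members in the PBS H3K27ac list numbered 5 with the 1 bp overlap and 5 within 500 bp. The PU.1 share was 1.86% in windows of 50 bp and 9.55% in windows of 200 bp, and 6.71% and 6.26% on the LPS and PBS H3K4me1 summits, the last 2 chosen after seeing the data. The share of members with a wider LPS H3K4me1 peak stayed at 56.6 to 59.5%. With 9 fragments at a median summit and 5 at the weakest, records of 1 class can hold or miss a call by a few fragments.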

Other observations

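Macrophage surface and effector genes had a member within 50 kb at 9 of 41 (22.0%, 12.0 to 36.7), beside 4.13% of all protein-coding genes. Of the 35 with a distal H3K4me1 peak of both lists in reach, 9 (25.7%) had a member, beside 8.06% of all such genes. Ctsb, a lysosomal protease gene, had the strongest of them by −log10 q, 42338 bp upstream with 16 fragments and a fold enrichment of 6.79. Trem2, a lipid receptor gene, had 1 at 9776 bp downstream with 13 fragments and a fold enrichment of 6.99, and this member held 2 AP-1 sites, 139 and 163 bp from its summit. Lyz2 had 2 members, the stronger 20260 bp upstream with 9 fragments, and Ctsd had 2, the stronger 9927 bp upstream with 11. The others were Adgre1, which encodes F4/80, Tyrobp, Cd86, Cd44 and Lgals3, with 6 to 12 fragments each. Another gene had the nearest start for the members at Ctsb (Defb30), Trem2 (Treml1) and Cd86 (Ildr1) and for the stronger 1 at Lyz2 (Lyz1).

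An LPS H3K27ac record of some class lay within 50 kb of 17 of 24 interferon-stimulated genes. The same count was 23 of 41 macrophage surface and effector genes, 12 of 22 feedback inhibitors and 6 of 30 genes of other tissues. It was not made over all genes, so these shares have no background. Members lay at 2 of the 24 interferon-stimulated genes (8.33%, 2.32 to 25.8), Ifit2 and Ifi204, with 9 and 6 fragments. These members lay nearer to the starts of Lipa and Ifi207. Genes of other tissues had members at 0 of 30 and fibroblast markers at 0 of 12. The neutrophil and lymphocyte lists had them at 1 of 12 each (8.33%, 1.49 to 35.4), at Mmp8, where the summit lay in an intron of Mmp27, and at Cd4, where the nearest gene was Lag3.

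Chromosome X held 1 member of 47 distal LPS H3K27ac records (2.13%, 0.377 to 11.1), where the autosomes held 753 of 2912 (25.9%, 24.3 to 27.48). It held 1.89% of the LPS and 1.72% of the PBS H3K4me1 peaks and 1.88% of the LPS H3K27ac records. This count was looked at after its value was seen. The mice were male by the study's methods, and the part of X copy number in the count was not tested.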
